A study of Mus musculus with 4 samples.

Results

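The genes described here are the transcripts behind a flow cytometry gate, together with 3 further surface and lysosomal markers by which macrophages are usually recognised. The gate took cells high for CD64 (Fcgr1) and CD11b (Itgam) and low for Siglec-F (Siglecf). Itgax (CD11c), Adgre1 (the F4/80 antigen) and Cd68 complete the set. They were chosen by name, and all 6 were found among the 16360 gene symbols of the count table and among the 13575 that entered the test. Recruited alveolar macrophages, the monocyte-derived cells that enter the airspaces of injured lung, had been sorted through this gate 7 days after 100 µl of bleomycin at 1 U/ml was given into the trachea. Bleomycin is a drug that injures the lung and leads to fibrosis. The mice were males 8 to 10 weeks old of the strain given as CD57/Bl6, and both groups received the drug. One group was homozygous for R213G, a substitution in extracellular superoxide dismutase (EC-SOD, the product of Sod3) that changes its binding to matrix, and the other was wild type (WT). Each genotype had 2 libraries of poly(A) RNA, and the labels do not say whether each came from its own mouse, so a p-value measures only the spread between these libraries.

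CD64 is the high-affinity receptor for immunoglobulin G, and it signals through a shared gamma chain. CD11b and CD11c are alpha subunits that pair with the same beta-2 chain (Itgb2) to form the complement receptors of myeloid cells. Siglec-F is an inhibitory sialic acid receptor that marks resident alveolar macrophages and eosinophils. Adgre1 is an adhesion G protein-coupled receptor that defines mouse macrophages, and CD68 is a heavily glycosylated protein of the late endosome and lysosome, related to the LAMP proteins. Monocytes that settle in the airspace are known to keep CD11b at first and to gain Siglec-F only later.

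The genes lie on 4 chromosomes (GRCm38, GENCODE vM21). Fcgr1 lies on the minus strand of chromosome 3 from 96282909 to 96293969. Siglecf (43351341 to 43359531), Itgam (128062640 to 128118491) and Itgax (128129547 to 128150657) lie on the plus strand of chromosome 7, and 11055 bases separate the end of Itgam from the start of Itgax. Cd68 lies on the minus strand of chromosome 11 from 69664213 to 69666153. Adgre1 lies on the plus strand of chromosome 17 from 57358691 to 57483527.

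RefSeq (GRCm38.p6) gave a promoter for 5 of the 6. The 150 bases before the start of each are shown because the gate took cells high for the protein of Itgam and low for that of Siglecf. Macrophage genes are also commonly bound by PU.1, the myeloid factor encoded by Spi1. Capitals mark the PU.1 core GAGGAA, or its reverse complement TTCCTC, and the AP-1 motif TGANTCA, each searched on both strands and not overlapping here.

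Itgam, chr7:128062490-128062639, plus strand: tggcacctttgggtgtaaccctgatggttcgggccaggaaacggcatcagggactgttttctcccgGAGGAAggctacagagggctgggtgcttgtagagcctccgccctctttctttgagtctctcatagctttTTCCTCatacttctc
Siglecf, chr7:43351191-43351340, plus strand: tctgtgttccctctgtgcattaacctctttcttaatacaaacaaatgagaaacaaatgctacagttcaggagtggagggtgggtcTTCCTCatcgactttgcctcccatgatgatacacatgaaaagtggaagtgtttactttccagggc
Fcgr1, chr3:96293970-96294119, minus strand: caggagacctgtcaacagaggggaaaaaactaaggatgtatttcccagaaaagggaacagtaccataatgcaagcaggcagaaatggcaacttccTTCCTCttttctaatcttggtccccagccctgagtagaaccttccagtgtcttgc
Itgax, chr7:128129400-128129549, plus strand: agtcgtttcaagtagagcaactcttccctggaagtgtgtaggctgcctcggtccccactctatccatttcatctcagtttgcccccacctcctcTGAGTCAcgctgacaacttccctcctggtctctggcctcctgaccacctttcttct
Cd68, chr11:69666171-69666320, minus strand: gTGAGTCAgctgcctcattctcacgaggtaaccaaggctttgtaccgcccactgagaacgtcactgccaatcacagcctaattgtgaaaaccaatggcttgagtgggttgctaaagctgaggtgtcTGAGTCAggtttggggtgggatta

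The PU.1 core was present in the windows of the 3 gate genes, at 84 and 15 bases before the start in Itgam, at 65 in Siglecf and at 55 in Fcgr1. The windows of Itgax and Cd68 held the AP-1 motif and no PU.1 core, at 56 bases in Itgax and at 149 and 24 bases in Cd68. Of 32851 mouse promoter windows of this length, 14.5% held the core and 4.24% the AP-1 motif. Siglecf, the low gene of the gate, thus carried the same core as Itgam, a high one. Fcgr1 also held TTCNNNGAA, the interferon-gamma activated motif, 109 bases before its start, as 4.09% of all windows did (not capitalised). Spi1 itself was at 464 ± 44.2 CPM in R213G against 443 ± 7.76 CPM in WT (CPM, counts per 1000000 after TMM scaling, as mean ± SD, n = 2 libraries).

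Total counts were 33488569 to 35176210 per library. The library R213G replicate 1 differed most, having 13584 genes detected against 14598 to 15194 in the others and 1689 CPM of the non-coding transcript Gm42418, against 513 to 702 CPM elsewhere. Lars2 was likewise at 143 CPM there and at 50.8 to 62.5 CPM elsewhere. Sod3 was low in all 4 libraries, at 0.117 and 1.35 CPM in R213G against 1.42 and 2.80 CPM in WT. Since R213G is a substitution, the level of Sod3 does not check the genotype labels.

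In these cells 5 of the 6 transcripts were abundant and Siglecf was low. Cd68 was the most abundant and Siglecf the least in each library, and none of the 6 passed the test between genotypes. The first count is read against its background: 0 of 6 genes were called at an adjusted p under 0.05, where 0% of all 13575 tested genes were called (edgeR quasi-likelihood with Benjamini-Hochberg adjustment), and 0 of 6 were under 0.05 without adjustment, where 2.22% of all genes were. The groups did not overlap for 1 of 6, Siglecf, where 28.9% of all genes do not overlap. The median log2 fold change (R213G minus WT) was -0.032 over the 6 genes and -0.0056 over all genes tested. Both genotypes had passed through the same gate on 3 of these proteins. In a bulk library, fewer cells of a type and less RNA per cell cannot be told apart.

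**Figure D1:**
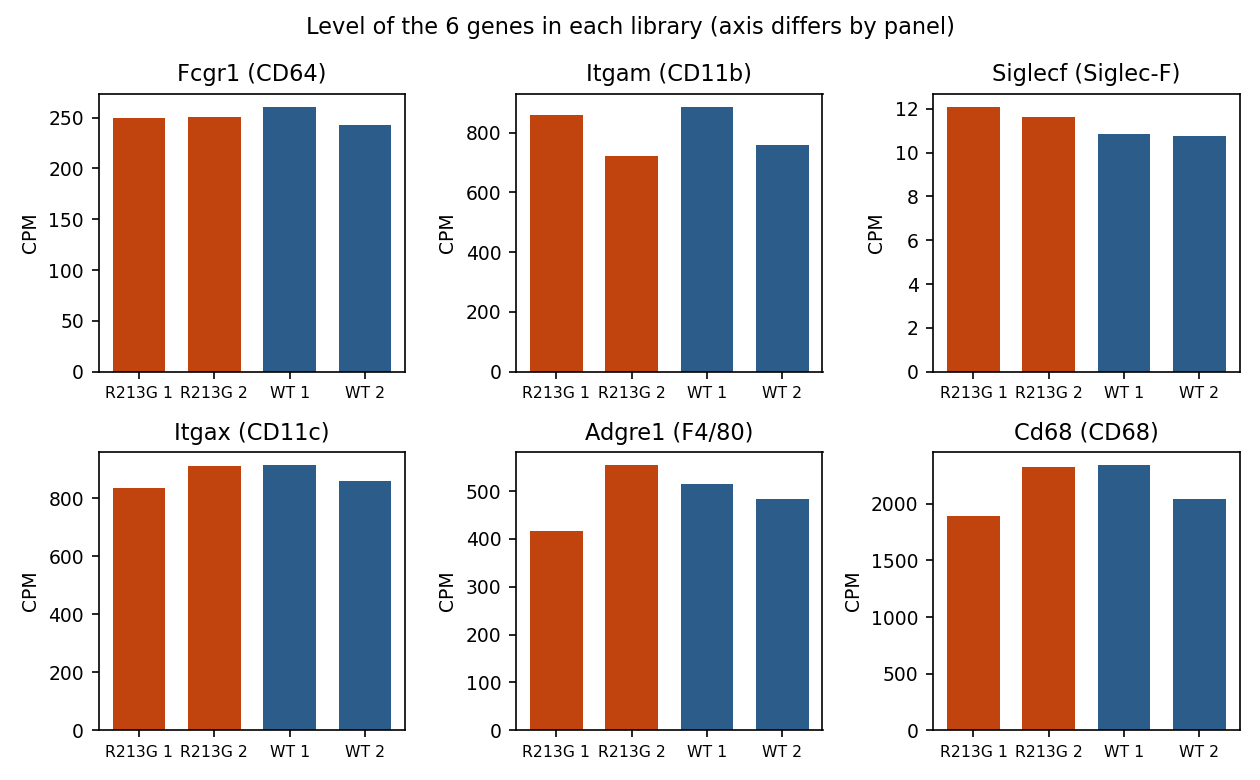
Bars give CPM (vertical axis from 0, its scale differing by panel) of the 6 genes in each of 2 R213G libraries (orange) and 2 WT libraries (blue). Siglecf reaches no more than 12.1 CPM, while each of the other 5 genes is above 240 CPM in every library.

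Fcgr1, the receptor that opens the gate, was at 249.9 and 250.5 CPM in R213G replicates 1 and 2 and at 261 and 243 CPM in WT replicates 1 and 2. Both R213G values fell between the WT values. The genotype means were 250.2 ± 0.494 and 252 ± 12.6 CPM, and the log2 fold change was -0.0089 ± 0.11 (SE; edgeR adjusted p = 0.9996). Its 95% interval ran from -0.26 to 0.24, a fold of 0.834 to 1.18. Fcgr1 was also one of the steadiest transcripts: its highest library exceeded its lowest 1.07-fold, and only 3.94% of the 8534 genes with a mean of at least 10 CPM had a smaller range. The median gene of that group had a range of 1.28-fold.

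Itgam, the gate's second positive gene, was at 859 and 721 CPM in R213G against 886 and 759.7 CPM in WT. The groups overlapped, and in both genotypes replicate 1 was above replicate 2. The log2 gap between libraries of one genotype was 0.25 in R213G and 0.22 in WT, and the difference between genotypes was -0.059 ± 0.13 (95% interval -0.35 to 0.23). The libraries of one genotype thus differed by more than the genotypes did. The sign turned without R213G replicate 2 (0.059).

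Siglecf, the gate's negative gene, was at 12.1 and 11.6 CPM in R213G against 10.8 and 10.8 CPM in WT, from 413, 405, 358 and 370 counts. Both R213G libraries were above both WT libraries. Group means were 11.9 ± 0.324 and 10.8 ± 0.0369 CPM, and the log2 fold change of 0.13 ± 0.29 did not pass (edgeR adjusted p = 0.9996). Its interval was the widest of the 6, from -0.52 to 0.79, which spans a fold of 0.697 to 1.73.

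Itgax, the CD11c alpha subunit and a gene of resident macrophages and dendritic cells as well, was at 834 and 912 CPM in R213G against 913 and 859 CPM in WT. The groups overlapped, and the difference was -0.022 ± 0.11 (95% interval -0.27 to 0.23). Its range of 1.10-fold was smaller than that of all but 7.25% of the 8534 genes.

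Adgre1 was the least even of the set. It was at 416 and 554 CPM in R213G against 515 and 484 CPM in WT, so the R213G libraries held both the lowest and the highest value. The difference was -0.042 ± 0.14 (95% interval -0.36 to 0.28), and the gap between the R213G libraries, 0.41 on the log2 scale, was larger. Leaving out R213G replicate 2 gave -0.27 (unadjusted p = 0.0452, adjusted p = 0.358 by edgeR, with the lone R213G library assumed to vary as the WT pair does), and leaving out R213G replicate 1 gave 0.15, so the sign rested on single libraries.

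Cd68, the most abundant of the 6, was at 1892 and 2328 CPM in R213G against 2342 and 2046 CPM in WT. R213G replicate 1 was again the lowest library and the groups overlapped. The difference was -0.057 ± 0.13 (95% interval -0.36 to 0.25). Leaving out R213G replicate 2 gave -0.22, and leaving out R213G replicate 1 gave 0.086.

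**Figure D2:**
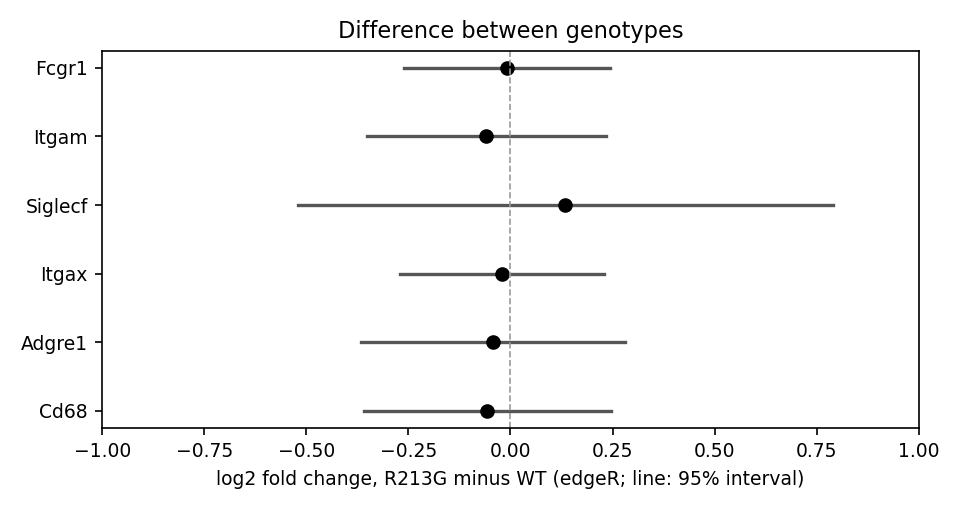
Points give the log2 fold change of each gene, R213G minus WT, and lines its 95% interval from the edgeR fit over all genes. All 6 intervals include 0, and that of Siglecf, from -0.52 to 0.79, is the widest.

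Levels of different genes were compared as CPM per kilobase of exon. Cd68 led at 1678 ± 245 in R213G and 1746 ± 166 in WT, and stood at position 17 from the top of 13283 tested genes with a length. Itgax (182 ± 11.5 and 184 ± 7.97), Itgam (157 ± 19.4 and 164 ± 17.8) and Adgre1 (149.8 ± 30.1 and 154 ± 6.88) formed a close group at positions 168, 199 and 216. Itgam and Adgre1 changed places in R213G replicate 2, so these neighbours did not differ beyond their spread. Itgax was above Itgam in all 4 libraries, by as little as 174 against 171 in R213G replicate 1. Fcgr1 followed at 96.6 ± 0.191 and 97.2 ± 4.86, below Adgre1 in each library. Siglecf was last at 4.25 ± 0.116 and 3.87 ± 0.0132, with 46.7% of genes below it.

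**Figure D3:**
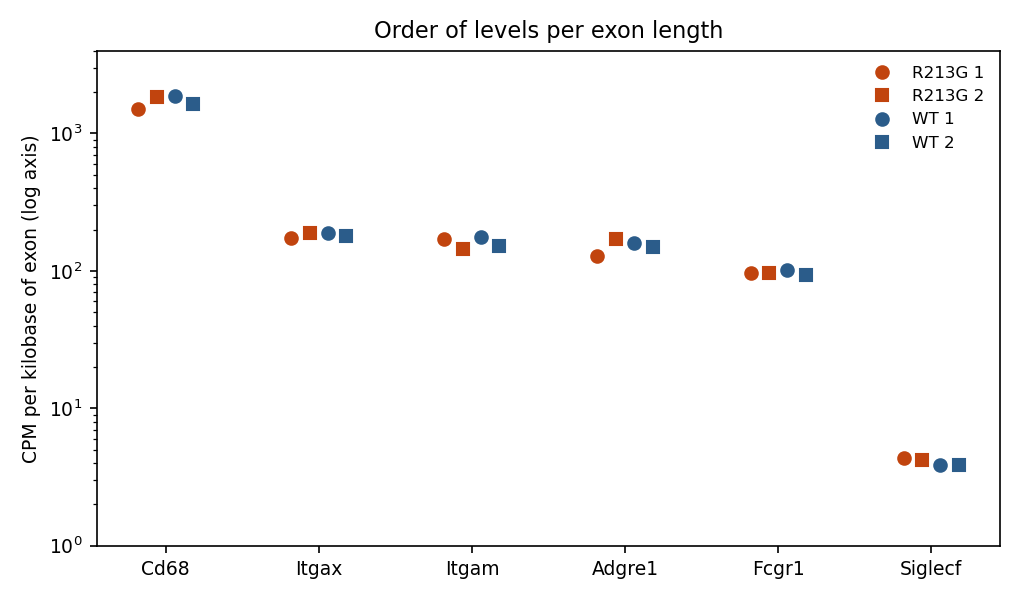
Points give CPM per kilobase of exon (log axis) of the 6 genes in each library, ordered by their mean. Cd68 lies near 1712, 4 genes lie between 93.8 and 190.1 in all libraries, and Siglecf lies near 4.06.

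The per-length value of Itgam carries a limit of annotation. GENCODE vM21 places a further protein-coding gene, Gm49368, over Itgam on the same strand. Of the 5128 distinct 50-base words of Itgam transcripts, 66.3% also occur in those of Gm49368. That symbol was not among the 16360 of the count table. Which annotation the authors counted with is not given in the sources used here. If it held Gm49368, reads in exons of both models could have been set aside. Itgax shared 8.02% of its words with Itgad, Siglecf shared 0.206% with other genes, and Fcgr1, Adgre1 and Cd68 shared 0 with other genes. Itgam and Itgax shared no words with each other.

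Ratios within a library need no scaling between libraries, and 4 were computed per exon length. Itgam to Siglecf, a gene whose protein was gated high against one gated low, was 39.4 and 34.4 in R213G against 45.4 and 39.1 in WT. The groups overlapped, and the log2 difference was -0.19 (exact permutation p = 0.667, two-sided, 1.0 after Benjamini-Hochberg adjustment over the 4 ratios). Itgam to Itgax was 0.985 and 0.756 in R213G against 0.928 and 0.845 in WT, a log2 difference of -0.038. Fcgr1 to Cd68 was 0.0641 and 0.0523 against 0.0540 and 0.0576, and Adgre1 to Cd68 was 0.0854 and 0.0924 against 0.0854 and 0.0918. The last 3 ratios had exact permutation p-values of 1.0, and 2 libraries against 2 cannot give less than 0.333. Adgre1 and Cd68 were both lowest in R213G replicate 1. Their ratio was 0.0854 in both libraries numbered 1 and slightly higher in R213G replicate 2 (0.0924) and WT replicate 2 (0.0918).

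The 6 genes did not share one pattern over the libraries. Cd68, Itgax and Adgre1 were all lowest in R213G replicate 1, with Pearson r of 0.93 to 0.999 among the 3 pairs over the 4 libraries, which share one scaling factor each. The same library was highest for Gm42418 and lowest for the summed pan-macrophage list (36630.4 CPM, against 39114 to 43923 elsewhere). Lyz2 made most of that sum (19065 CPM there, against 21736 to 25101 CPM elsewhere). Mertk, Csf1r, Mpeg1, Msr1 and Cx3cr1 were also lowest there, while Ctss, Lgals3, Mrc1, Tyrobp, Aif1 and C5ar1 were not, and Cd14 was highest. With each gene of the list weighted equally on the log2 scale, R213G replicate 1 (9.529) and WT replicate 2 (9.535) were nearly level. The part of Gm42418 or of the list in the level of Cd68, Itgax and Adgre1 was not tested. Itgam did not follow them, with r of -0.52 with Adgre1, -0.20 with Cd68 and -0.19 with Itgax. It was highest in WT replicate 1, as Itgax and Cd68 were, and next highest in R213G replicate 1. These were also the libraries with the most dendritic cell marker RNA (195 CPM in WT replicate 1 and 205 CPM in R213G replicate 1, against 59.95 and 51.2 CPM in R213G replicate 2 and WT replicate 2). Of 9 dendritic markers, 6 had these as their highest libraries, and defining markers Flt3 (30.6 and 20.2 CPM, against 6.29 and 7.11 CPM) and Zbtb46 (10.1 and 10.2 CPM, against 3.76 and 2.39 CPM) were among them. The share of all genes with these as their highest libraries is not given here, so this count has no background. The same libraries also had the highest sums of B cell markers (18.5 and 23.9 CPM, against 8.10 and 6.59 CPM) and of epithelial markers (168 and 221 CPM, against 106 and 102 CPM). Cdh1 made most of the epithelial sum and was highest in these libraries (150 and 187 CPM, against 84.6 and 86.8 CPM). Epcam was highest in R213G replicate 1 (32.2 CPM), while WT replicate 1 (14.9 CPM) and R213G replicate 2 (14.8 CPM) were nearly equal. Sftpc, Sftpb, Scgb1a1, Ager, Foxj1 and Krt8, all low, did not have both R213G replicate 1 and WT replicate 1 as their highest libraries. Sftpc had 0 counts in both of these. Itgax, which dendritic cells also express, was highest in WT replicate 1 (913 CPM) and R213G replicate 2 (912 CPM) and lowest in R213G replicate 1 (834 CPM). The part of dendritic, B cell or epithelial RNA in the level of Itgam was not tested.

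**Figure D4:**
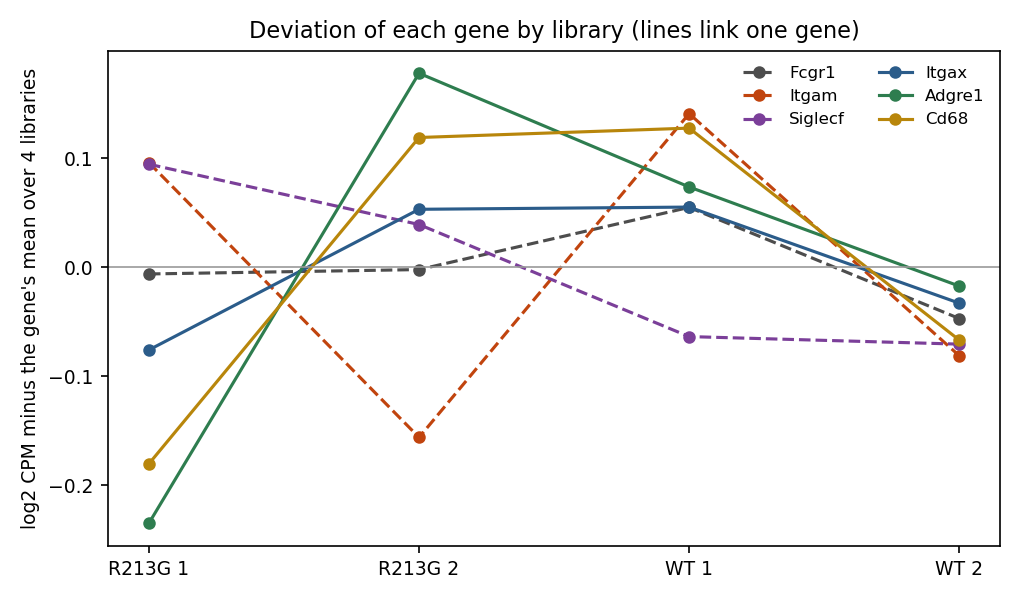
Each line links the 4 libraries of one gene, plotted as log2 CPM minus the mean of that gene. Adgre1, Cd68 and Itgax (solid) are lowest in R213G replicate 1, where Adgre1 lies 0.23 below its mean, while Itgam (dashed) is high in both libraries numbered 1.

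Over 4 libraries many genes lie close to any pattern. By the distance between centred log2 CPM values among genes with a mean of at least 10 CPM, the nearest to Fcgr1 were Eif3c (0.0089) and Serinc3 (0.018), to Itgam Nif3l1 (0.022) and Ube2l6 (0.028), and to Siglecf Spcs3 (0.0070) and Rab22a (0.011). The nearest to Itgax were Qrich1 (0.015) and Kif13a (0.019), to Adgre1 Nt5c2 (0.0075) and Hacd2 (0.027), and to Cd68 Dync1li2 (0.012) and Aoah (0.021). Between 165 and 406 genes per member had an r over 0.95.

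The partners of these genes were read from 7 lists of 66 genes in all, of which 62 were tested. None of the 62 passed in either direction (edgeR adjusted p), where 0% of all genes did, and 0 were under 0.05 without adjustment, where 2.22% of all genes were. The groups did not overlap for 7 of the 62, where 28.9% of all genes do not overlap. Among the Fc receptor partners of CD64 (10 tested, 5 with a positive fold change, median log2 fold change -0.013), the shared gamma chain Fcer1g was at 786 ± 19.2 CPM in R213G against 809 ± 45.5 CPM in WT. Fcgr2b, the inhibitory receptor, was at 839 ± 172 and 923 ± 14.6 CPM. Per exon length, Fcgr1 made up 15.8% ± 1.82 of the 4 Fc gamma receptor transcripts in R213G and 15.5% ± 0.401 in WT. The low-affinity activating receptor Fcgr3 took 56.3% ± 1.22 and 54.8% ± 0.748, Fcgr2b 23.4% ± 2.17 and 25.4% ± 1.53, and Fcgr4 4.57% ± 1.57 and 4.31% ± 1.18. CD64, the receptor sorted on, was thus the third of the 4 in transcript, although Fcgr3 and Fcgr2b share 166 words of 50 bases and their reads could have been split.

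Of the beta-2 integrin list (10 tested, 5 positive, median -0.0076), the common chain Itgb2 was at 2014 ± 169 CPM in R213G against 1959 ± 116 CPM in WT, talin (Tln1), which links integrins to actin, at 911 ± 40.9 and 926 ± 14.5 CPM, and the adaptor Skap2, of smallest p, at 198 ± 14.04 and 180.3 ± 11.9 CPM. Itgax supplied 47.6% ± 4.04 of the alpha subunit transcripts per exon length in R213G and 47.5% ± 0.704 in WT, and Itgam 41.1% ± 4.19 and 42.0% ± 2.14. Itgal, the subunit of LFA-1, supplied 11.2% ± 0.146 and 10.5% ± 1.43. Itgad had 1 to 9 counts per library. The order of Itgax and Itgam carries the limit given above for reads shared between Itgam and Gm49368.

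Among Siglecs and their phosphatases (8 tested, 5 positive, median 0.058), the macrophage Siglec1 (CD169) was at 774 ± 262 CPM in R213G against 813 ± 155 CPM in WT, or 111 CPM per kilobase over the libraries against 4.06 for Siglecf. Ptpn6, the phosphatase that inhibitory Siglecs recruit, was at 452 ± 18.0 and 425 ± 39.6 CPM, and Cd22 at 136 ± 19.2 and 154 ± 22.0 CPM. Of the adhesion receptors related to Adgre1 (6 tested, 2 positive, median -0.13), Adgre5 (CD97) was at 81.1 ± 1.25 and 93.4 ± 0.128 CPM with groups that did not overlap (log2 fold change -0.20 ± 0.13, edgeR unadjusted p = 0.145), and Adgrg6 at 13.4 ± 0.621 and 16.1 ± 5.62 CPM. Among LAMP proteins and lysosomal membrane glycoproteins (5 tested, 2 positive, median -0.072), Lamp1 was at 2409 ± 349 and 2578 ± 176 CPM and Npc1, a cholesterol exporter, at 702 ± 154 and 775 ± 101 CPM; both were lowest in R213G replicate 1, as Cd68 was.

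The myeloid transcription factors had 5 of 10 positive and a median of -0.0041. Cebpa was at 813 ± 69.7 CPM in R213G against 819.8 ± 41.8 CPM in WT, and Cebpb at 684 ± 156 and 582 ± 43.0 CPM. Maf was at 127 ± 19.4 and 154 ± 16.6 CPM (log2 fold change -0.27 ± 0.15, edgeR unadjusted p = 0.0991). Its groups did not overlap, but R213G replicate 2 (141.2 CPM) and WT replicate 2 (141.8 CPM) were nearly equal. Other pan-macrophage genes had 5 of 13 positive and a median of -0.039. Lysozyme (Lyz2) was at 21173 ± 2981 and 23418 ± 2379 CPM, cathepsin S (Ctss) at 8476 ± 228 and 8472 ± 516 CPM, and C5ar1 at 178 ± 10.8 and 204 ± 37.3 CPM.

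The label was checked against markers of 11 cell types. The lists held 55 tested entries, with Chil3 entered in both the resident and the monocyte list. Of these, 0 passed in edgeR after adjustment (0% of all genes). Without adjustment 3 were under 0.05 (2.22% of all genes), namely F13a1, Csf3r and Epcam. The groups did not overlap for 6 of the 55 (28.9% of all genes). Macrophage and monocyte RNA dominated. Summed CPM was 6615 to 8330 for interstitial macrophage markers, led by C1qa at 2551 ± 497 CPM in R213G against 2595 ± 67.0 CPM in WT, although its defining gene Lyve1 had 0 to 9 counts and Folr2 was at 18.6 ± 5.66 and 20.2 ± 3.72 CPM. Monocyte markers summed to 890.5 to 1386 CPM, with Ccr2 at 573 ± 143 and 536 ± 83.5 CPM and Ly6c2 at 10.7 ± 1.19 and 11.7 ± 1.49 CPM. F13a1, which encodes the A subunit of coagulation factor XIII, had the smallest p of all the markers. It was at 130.2 and 151 CPM in R213G against 274 and 175 CPM in WT, lower in both R213G libraries (log2 fold change -0.68 ± 0.19, edgeR unadjusted p = 0.0065, adjusted p = 0.9996). Resident alveolar macrophage markers summed to 576 to 974 CPM, of which Atp6v0d2 made 367 ± 105 and 363 ± 11.4 CPM, while the defining Fabp4 was at 37.3 ± 15.5 and 42.4 ± 5.82 CPM and Car4 at 14.2 ± 7.13 and 9.21 ± 5.07 CPM. Chil3, a chitinase-like protein counted in both the resident and the monocyte list, was at 504 CPM in WT replicate 2 and at 134 to 198 CPM elsewhere, and both sums were highest in WT replicate 2. Eosinophil markers summed to 0.204 to 1.20 CPM, all of it from Ear6, while Alox15 had 0 counts in each library. The defining Epx and Prg2 were not among the 16360 gene symbols of the count table, so they were not analysed here.

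CD11b is also carried by neutrophils, whose markers summed to 65.9 to 85.6 CPM, led by Csf3r, the G-CSF receptor (50.3 ± 7.12 CPM in R213G against 71.3 ± 4.57 CPM in WT; edgeR unadjusted p = 0.0110, adjusted p = 0.9996). S100a8 was at 16.0 ± 5.32 and 12.1 ± 1.48 CPM, and S100a9 had 31 counts in R213G replicate 1 and 0 in the others. Cxcr2 had 33 counts in R213G replicate 2, 35 in WT replicate 2 and 0 in the others. Ly6g, Mpo, Elane, Camp, Ngp and Retnlg were not among the 16360 gene symbols of the count table, so they were not analysed here. Dendritic markers summed to 51.2 to 205 CPM, with Ccr7 leading (33.5 ± 15.2 CPM in R213G against 48.1 ± 45.0 CPM in WT). T and NK cell markers summed to 80.8 to 110.5 CPM with Il7r leading and Cd3e at 75, 0, 37 and 0 counts, and B cell markers to 6.59 to 23.9 CPM with Ighm leading and Ms4a1 at 0 in both R213G libraries. Epithelial markers summed to 102 to 221 CPM, led by Cdh1, with Sftpc at 0 to 8 counts and Epcam at 23.5 ± 12.3 and 12.2 ± 3.73 CPM. Endothelial markers summed to 99.6 to 143 CPM, led by Vwf, with Cdh5 at 7 to 37 counts and Pecam1 at 24 to 105. Fibroblast and mural markers summed to 3.22 to 6.50 CPM, led by Acta2, with Col1a1 at 1 count in 1 library and 0 in the others. The other defining markers (Pdgfra, Ncr1 and Cd79a) were likewise not among the symbols of the count table.

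**Figure D5:**
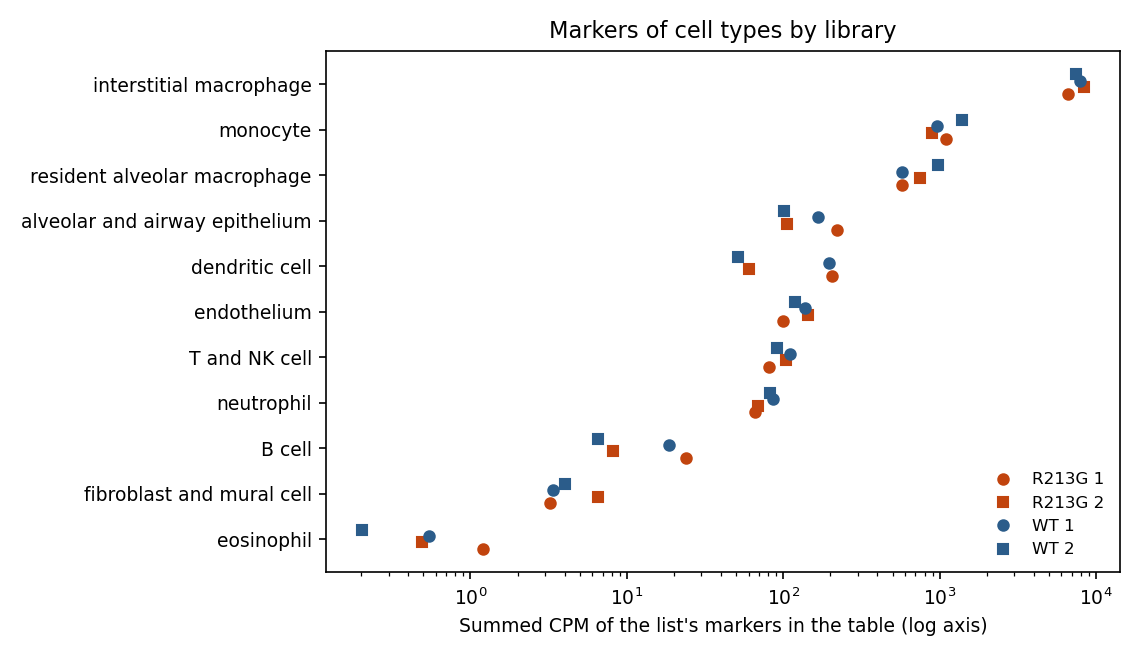
Points give the summed CPM (log axis) of each marker list in each library. Eosinophil markers stay at or under 1.20 CPM, and dendritic markers are higher in R213G replicate 1 and WT replicate 1 (205 and 195 CPM) than in the other 2 libraries.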

How the data were processed

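RNA of sorted recruited alveolar macrophages was sequenced in 4 libraries. Extraction used a column kit and library preparation kept strand, per the labels. The authors deposited unnormalized counts, 1 column per library and 1 symbol per line. STAR 2.5.1b, featureCounts, Subread 1.4.4 and GRCm38 are named in the submitters' processing notes. Annotation release, strand setting and treatment of reads with several matches were not given in those sources. The labels name no molecular identifiers. Each column name equals the description of 1 sample. No pair of libraries agreed within sampling noise (chi-square per degree of freedom of at least 18.4).

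R213G was compared with WT in edgeR 4.0.16 (R 4.3.3) by its quasi-likelihood test with TMM scaling, filterByExpr, robust estimation, 2 residual degrees of freedom and Benjamini-Hochberg adjustment over 13575 genes at 0.05. SE is the log2 fold change divided by the square root of F, and intervals are 95%. Log2 CPM used a prior count of 2. Exon length is the union of GENCODE vM21 exons, found for 15852 symbols (96.9%). Shared 50-base words were searched in all GENCODE transcripts on both strands. Exact permutation tests used scipy 1.17.1 (Python 3.11.15). The scripts were tested on simulated data.

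The genes and lists were chosen with earlier results of these data known. Named were the 6 genes, the 2 of highest mean CPM and the 1 of smallest p in each partner list, the defining markers and the highest marker of each cell type, the 2 genes nearest to each member, all genes of the share comparisons, and Sod3, Gm42418 and Lars2. Spi1, S100a9, Alox15, F13a1, Chil3, Gm49368, the further neutrophil and epithelial markers named and the motifs were chosen after the data had been seen. Alternatives were other scalings (DESeq2 size factors, upper quartile), filters (none, or 5 CPM on average), tools (DESeq2 1.42.0, limma 3.58.1 voom, the legacy form of edgeR), a replicate block, leaving out each library, and the longest transcript as length.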

Additional observations from a re-analysis of the deposited data

How the results depend on the processing

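The direction of all 6 genes, and their side of the threshold, held under DESeq2 size factors, upper-quartile scaling, both other filters, DESeq2, limma voom, the legacy form and the replicate block. With the block the log2 fold change was -0.0081 for Fcgr1, -0.060 for Itgam, 0.13 for Siglecf, -0.022 for Itgax, -0.056 for Adgre1 and -0.061 for Cd68, and no call changed. Same-numbered libraries deviated together only weakly (r = 0.093 over 13575 genes), and the labels do not say that a number marks a shared batch. The libraries numbered 1 were nevertheless alike in their dendritic, B cell and epithelial marker sums, the last of these mostly Cdh1. With each library left out in turn, its partner assumed to vary as the other genotype does, the log2 fold change ran from -0.059 to 0.043 for Fcgr1, -0.19 to 0.059 for Itgam, -0.090 to 0.042 for Itgax, -0.27 to 0.15 for Adgre1 and -0.22 to 0.086 for Cd68, so the sign of these 5 turned with single libraries (without WT replicate 1 for all 5, also without R213G replicate 1 for Itgax, Adgre1 and Cd68 and without R213G replicate 2 for Itgam), and from 0.11 to 0.16 for Siglecf, whose sign did not. The ratio differences ran from -0.30 to -0.087 for Itgam to Siglecf, -0.23 to 0.15 for Itgam to Itgax, -0.095 to 0.20 for Fcgr1 to Cd68 and -0.052 to 0.061 for Adgre1 to Cd68, and by construction length did not change them. Over all genes, 0 passed under edgeR with 4 libraries (302 at an unadjusted p under 0.05), 1 under DESeq2 (Clrn2, adjusted p = 0.0145, with 0 counts in both WT libraries), 0 under limma voom (227 unadjusted), and 0 to 2 with a library left out; the 2, Gm42418 and Lars2, were called without R213G replicate 2, when 1960 genes were under 0.05 unadjusted. The cause was not tested. List medians also moved with a library left out. For the Siglecs they ran from -0.016 to 0.016, a range that does not hold the 0.058 of all 4 libraries. They ran from -0.27 to 0.15 for the adhesion receptors, -0.26 to 0.13 for the LAMP list and -0.034 to 0.11 for the transcription factors. The range was -0.12 to 0.0059 for the pan-macrophage genes, -0.087 to 0.037 for the Fc receptor partners and -0.013 to 0.037 for the integrin list. With the longest transcript as length the order of the 6 genes was the same, and Fcgr1 made up 12.04% of Fc gamma receptor transcripts in R213G and 11.7% in WT. Both genes nearest to Itgam and to Adgre1 lie under 50 CPM, so a search from 50 CPM leaves them out by construction.

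Siglecf had the fewest counts of the 6 genes, 358 to 413 per library.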
